A study of Mus musculus with 8 samples.

Results

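The genes described here were 34 genes of myelin and of oligodendrocyte differentiation, picked by symbol from the 32285 genes of the count tables. They comprised 10 genes of myelin proteins (Mbp, Mog, Mag, Mobp, Mal, Ermn, Cnp, Cldn11, Opalin and Tspan2) and 3 of myelin lipid and metabolism (Aspa, Ugt8a and Fa2h). A further 2 encode gap junction proteins (Gjc3 and Gjb1), 2 encode axon-glia adhesion proteins (Nfasc and Cntn2), and 9 encode transcription factors (St18, Nkx6-2, Nkx2-2, Myrf, Sox10, Sox8, Olig1, Olig2 and Zfp488). The remaining 8 were 5 genes known from committed precursors (Enpp6, Bcas1, Gpr17, Bmp4 and Itpr2), 2 genes of precursors (Pdgfra and Cspg4), and Prr5l. All 34 were found in the files.

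Single-nucleus RNA was sequenced from the cerebral cortex, without its medial part, of C57BL/6J mice at postnatal day 25. The groups were wild type (WT) and Chd8 heterozygous (Chd8het) animals, and each genotype was represented by 2 male and 2 female mice, every animal giving its own library. Chd8 encodes a chromatin remodeller of the CHD family. The labels describe litter- and sex-matched pairs but do not say which animals form a pair, and the Chd8 allele is not described in them. Replicate 1 of every group was single-indexed and replicate 2 dual-indexed, so the replicate number is also the index type.

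Oligodendrocyte precursor cells (OPCs) divide and carry the receptor PDGFRA. They leave the cell cycle, pass through a committed stage, and become mature oligodendrocytes that wrap axons in myelin. SOX10 and OLIG2 act along the whole lineage, and MYRF is required to switch on the myelin genes. Myelination of the rodent cortex proceeds over the weeks after birth, so all of these stages are present in juvenile cortex.

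Upstream sequence is shown for 5 members, chosen to represent each stage of highest level, to place the sequence beside the stage pattern reported below. RefSeq promoter windows on GRCm38.p6 matched 26 of the 34 members, and Mbp, Fa2h, St18, Myrf, Sox10, Olig1, Bcas1 and Gpr17 had no entry. Each run holds the 250 bases before the annotated start, 5′ to 3′ on the strand of the gene. Capitals mark ACAAAG or AACAATG, forms of the core recognised by SOX factors, and CTGGCAC, a form of the MYRF motif, on either strand. The windows were chr11:100574689-100574938 (plus strand) for Cnp, chr19:41077114-41077363 (minus strand) for Opalin, chr8:46986637-46986886 (plus strand) for Enpp6, chr14:46390670-46390919 (minus strand) for Bmp4 and chr5:75152001-75152250 (plus strand) for Pdgfra.
Cnp: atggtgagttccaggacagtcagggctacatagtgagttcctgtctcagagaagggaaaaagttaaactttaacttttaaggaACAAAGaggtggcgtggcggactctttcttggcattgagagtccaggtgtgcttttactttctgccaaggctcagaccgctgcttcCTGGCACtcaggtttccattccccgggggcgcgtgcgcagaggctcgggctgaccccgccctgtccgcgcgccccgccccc
Opalin: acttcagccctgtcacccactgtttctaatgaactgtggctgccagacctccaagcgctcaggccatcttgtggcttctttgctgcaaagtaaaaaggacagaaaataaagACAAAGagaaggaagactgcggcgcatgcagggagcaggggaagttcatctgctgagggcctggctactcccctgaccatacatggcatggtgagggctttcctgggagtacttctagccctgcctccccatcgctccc
Enpp6: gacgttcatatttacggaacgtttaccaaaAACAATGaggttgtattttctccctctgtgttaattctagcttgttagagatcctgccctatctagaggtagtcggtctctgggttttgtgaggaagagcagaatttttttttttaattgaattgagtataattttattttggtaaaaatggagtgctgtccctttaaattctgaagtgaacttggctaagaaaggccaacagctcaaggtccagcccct
Bmp4: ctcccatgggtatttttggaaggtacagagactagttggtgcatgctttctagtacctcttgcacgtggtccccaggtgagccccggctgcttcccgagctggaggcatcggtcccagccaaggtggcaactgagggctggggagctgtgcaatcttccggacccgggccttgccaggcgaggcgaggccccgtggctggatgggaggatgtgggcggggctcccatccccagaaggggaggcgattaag
Pdgfra: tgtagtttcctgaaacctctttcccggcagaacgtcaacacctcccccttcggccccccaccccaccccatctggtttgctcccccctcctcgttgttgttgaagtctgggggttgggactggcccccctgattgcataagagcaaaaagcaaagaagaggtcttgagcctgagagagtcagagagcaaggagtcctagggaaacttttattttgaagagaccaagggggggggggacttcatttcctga
In Cnp, ACAAAG began 167 bases and CTGGCAC 81 bases before the start. ACAAAG began 139 bases before the start of Opalin, and AACAATG 220 bases before that of Enpp6. The windows of Bmp4 and Pdgfra held none of these 3 motifs. Some genes have several windows, so genes with a match in any window were counted. ACAAAG was present for 7 of the 26 members (Mag, Mobp, Cnp, Opalin, Tspan2, Gjb1 and Prr5l), beside 18.6% of all genes with a window (16.5% of all 32851 windows). All 7 were highest in mature oligodendrocytes, as were 15 of the 26. AACAATG was present for 3 members (Olig2, Enpp6 and Prr5l), beside 3.78% of genes and 3.29% of windows. CTGGCAC was present for 2 members (Mag and Cnp), beside 4.83% of genes and 4.19% of windows. In all, 9 motifs were searched, and a match describes letters only.

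The 8 libraries held 97772 barcodes and between 69503598 and 98132783 UMIs each (a UMI is 1 captured RNA molecule). After filtering and removal of predicted doublets 77655 nuclei were kept, 7450 to 10959 per library. The libraries shared 27 to 63 barcode sequences per pair. Of these nuclei 7001 belonged to the oligodendrocyte lineage, with 2535 in the OPC cluster, 901 in the committed cluster and 3565 in the mature cluster. A further 63054 nuclei were of other named types. The stages were named from genes outside the 34, and all 34 were kept out of the clustering. Of their own listed markers, 10 of 10 were raised 2-fold or more for OPC and 11 of 12 for mature nuclei. For committed nuclei 11 were listed, 10 were in the files, and all 10 of these were raised. UMIs per library summed to 754079 to 1166568 in OPC, 365218 to 587163 in committed and 1257854 to 1751884 in mature nuclei. Levels are given as counts per 1000000 UMIs of the stage (CPM), and ± is the SD over libraries. They are compared within a gene only, not between genes. Summed astrocyte markers stood at 1046 to 1564 CPM in OPC, 197 to 661 CPM in committed and 338 to 745 CPM in mature nuclei. Of the lists for types outside the lineage, the inhibitory neuron markers had the highest sums, with means of 7745, 5126 and 4452 CPM in the same order. Their part in the results was not tested.

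The 34 genes fell into an ordered series over the 3 stages. By mean level over the 8 libraries, 4 were highest in OPC, 12 in committed and 18 in mature nuclei. With nuclei staged one by one by a marker gate instead of by cluster, these counts were 6, 8 and 20, and 29 of the 34 kept their highest stage. For 30 of the 34 the same stage was highest in all 8 libraries, and for 27 the library values of the highest and second-highest stage did not overlap. Of the 12974 genes with at least 80 UMIs summed over the lineage, 27.6% had the same highest stage in all 8 libraries and 17.4% had no overlap between the highest and second stage. Overlap was seen for Gjc3, Myrf, Sox10, Sox8, Olig1, Olig2 and Gpr17. The stages come from clusters, so these levels are a description and carry no test.

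**Figure D1:**
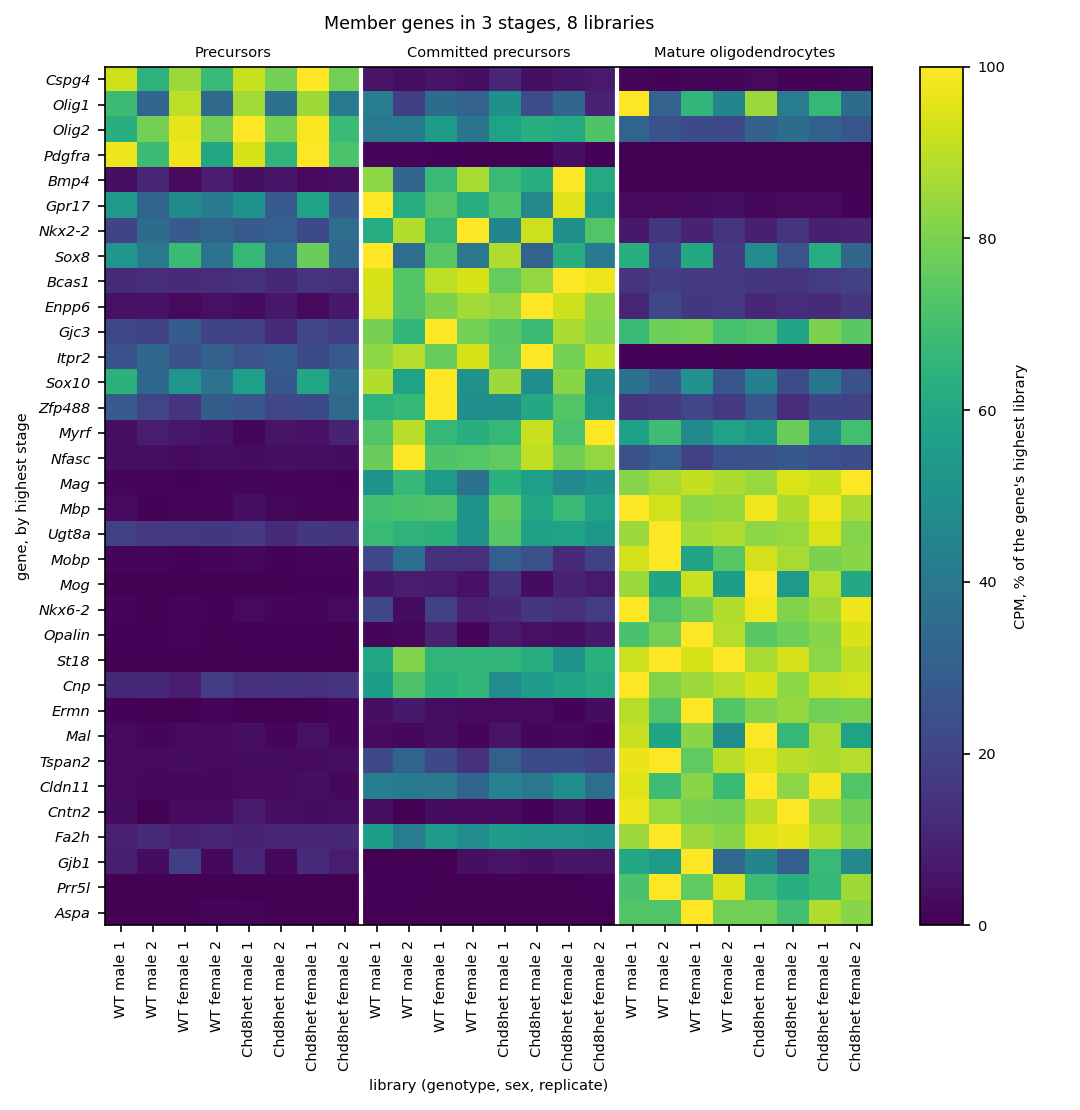
Heat map of the 34 genes (rows, grouped by highest stage) in the 8 libraries of each of the 3 stages (columns); colour is CPM as a percentage of the gene's highest library value. The 10 myelin protein genes are brightest in mature oligodendrocytes, the 5 committed-stage genes in committed precursors, and Pdgfra and Cspg4 in precursors.

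Both precursor genes were far lower in committed nuclei than in OPC. Pdgfra, the receptor for platelet-derived growth factor A, stood at 943 ± 193 CPM in OPC, 14.7 ± 13.4 CPM in committed and 3.65 ± 2.07 CPM in mature nuclei, and its OPC level was 64.3-fold the committed level (25.0 to 223 over libraries). Cspg4, which encodes the NG2 proteoglycan, stood at 331 ± 49.9, 23.6 ± 9.15 and 5.86 ± 2.01 CPM in the same order.

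The 5 committed-stage genes were highest in the committed cluster in all 8 libraries, and for Gpr17 this turned with the staging. Bmp4, a secreted morphogen of the TGF-beta family, stood at 10.5 ± 5.43 CPM in OPC, 146 ± 42.2 CPM in committed and 0.688 ± 0.609 CPM in mature nuclei. Enpp6, a choline phosphodiesterase used as a marker of newly formed oligodendrocytes, stood at 41.0 ± 15.1, 811 ± 79.4 and 136 ± 35.3 CPM. Itpr2, an intracellular calcium channel, stood at 1624 ± 167 CPM in committed and 16.6 ± 3.64 CPM in mature nuclei. Gpr17, a G protein-coupled receptor, was already at 149 ± 40.9 CPM in OPC, reached 246 ± 64.9 CPM in committed and stood at 9.31 ± 2.94 CPM in mature nuclei. By the marker gate Gpr17 was at 136 ± 51.7 CPM in OPC and 99.9 ± 60.05 CPM in committed nuclei. Bcas1 stood at 3167 ± 349.9 CPM in committed against 599.8 ± 48.9 CPM in mature nuclei.

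The 9 transcription factors split over all 3 stages, with 2 highest in OPC, 5 in committed and 2 in mature nuclei. By the marker gate the split was 3, 3 and 3, since Nkx2-2, Sox8 and Olig1 changed stage. Olig2, a basic helix-loop-helix factor of the lineage, stood at 62.5 ± 10.8, 40.5 ± 9.40 and 21.3 ± 3.69 CPM from OPC to mature nuclei. Olig1, its paralog, had nearly equal levels in OPC (64.9 ± 27.9 CPM) and mature nuclei (64.4 ± 26.8 CPM), with a lower committed level of 33.4 ± 14.1 CPM. Sox10, a factor of the whole lineage, stood at 264 ± 78.6, 404 ± 117 and 197 ± 56.6 CPM. Myrf, the myelin gene activator, stood at 11.3 ± 4.93, 158 ± 28.4 and 122 ± 22.0 CPM, so its committed and mature levels lay close together. Nkx2-2 (89.2 ± 24.5 CPM) and Zfp488 (65.6 ± 16.8 CPM) had their highest level in the committed cluster in 8 of 8 libraries. By the marker gate Nkx2-2 was at 37.0 CPM in OPC and 33.2 CPM in committed nuclei, and Olig1 at 48.2 CPM in OPC and 61.6 CPM in mature nuclei. St18 and Nkx6-2 were the 2 factors highest in mature nuclei, at 4332 ± 278 and 66.2 ± 7.504 CPM. Sox8 had overlapping values in the 3 stages, with 96.0 ± 31.5 CPM in OPC, 110.4 ± 48.3 CPM in committed and 77.2 ± 35.4 CPM in mature nuclei. By the gate it was at 80.5, 64.5 and 78.3 CPM.

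All 10 myelin protein genes were highest in mature nuclei in 8 of 8 libraries, but they differed in how much of that level committed nuclei already had. Mbp, a major protein of compact myelin, stood at 143 ± 62.9 CPM in OPC, 4529 ± 581 CPM in committed and 6293 ± 459.7 CPM in mature nuclei, a mature level of 1.39-fold the committed one (1.1502 to 1.63). Mag and Cnp had a similar shape, with 718 ± 124 against 1199 ± 77.7 CPM and 145 ± 18.1 against 216 ± 15.3 CPM. Mog, a protein of the outer myelin surface, stood at 127 ± 56.9 CPM in committed and 1241 ± 314 CPM in mature nuclei, 9.79-fold higher (6.87 to 16.02). Mal and Ermn were late, with mature levels 27.1-fold and 24.6-fold those of the next stage. Opalin, a transmembrane protein of oligodendrocytes, stood at 21.2 ± 13.4 CPM in committed and 376 ± 45.1 CPM in mature nuclei.

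The lipid genes followed the mature pattern to different degrees. Aspa, the enzyme that splits N-acetylaspartate, was at 692 ± 84.0 CPM in mature nuclei, 131-fold its level in the next stage. Ugt8a, which makes galactocerebroside, was present in OPC at 146 ± 18.3 CPM and reached 796 ± 57.0 CPM in mature nuclei. Fa2h, the fatty acid 2-hydroxylase of myelin lipids, stood at 523 ± 41.0 CPM in mature nuclei.

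The gap junction and adhesion genes differed in stage. Nfasc, neurofascin of the axon-glia junction, was highest in committed nuclei at 4093 ± 481 CPM, 3.25-fold its mature level (2.93 to 3.66). Cntn2, contactin 2 of the region beside the node, was at 4.84 ± 3.13 CPM in committed and 188 ± 18.03 CPM in mature nuclei. The connexin gene Gjc3 was similar in committed (798 ± 107 CPM) and mature nuclei (728 ± 71.8 CPM), while Gjb1 was highest in mature nuclei at 22.9 ± 9.21 CPM. By the marker gate Gjc3 was at 725 CPM in committed and 736 CPM in mature nuclei. Prr5l, which encodes a partner of the TOR complex 2, was at 11.4 ± 6.65 CPM in committed and 1519.7 ± 265 CPM in mature nuclei.

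Within the 3 stages the lineage divided into 11 subclusters, placed at positions 1 to 11 by mature minus OPC marker level. The subcluster at position 4 was called OPC by mean marker level (log2 0.69 for OPC and 0.16 for committed markers). At 2-fold or more, however, 4 committed and 3 OPC markers were raised in it. Of its 303 nuclei 292 came from the committed cluster, so its name is not settled. The subclusters at positions 3 and 7 were left unnamed by the marker rule. Bmp4 and Gpr17 reached their highest pooled level at position 4, with 219.9 and 460 CPM. At position 6 they were at 1.63 and 35.0 CPM. For Gpr17 the peak at position 4 held in 8 of 8 libraries. Bmp4 was nearly as high at position 5 (212 CPM), its library values at the 2 positions overlapped, and the peak at position 4 held in 6 of 8 libraries. Enpp6 (1252 CPM, 8 of 8 libraries) and Itpr2 (1865 CPM, 7 of 8) were highest at position 5. Nfasc (6044 CPM, 8 of 8 libraries) and Mbp (8386 CPM, 5 of 8) were highest at position 6, where 231 of 239 nuclei came from the committed cluster. Mbp was at 8124 CPM at position 7 and 5582 CPM at position 11, so the pooled level of this committed subcluster was above those of the mature positions. At position 6 Itpr2 was still at 1569 CPM and Opalin was at 64.4 CPM. From position 6 to 7 Itpr2 went to 24.6 CPM, Mog went from 241 to 1360 CPM and Opalin to 648 CPM.

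Opalin and Prr5l separated the mature positions. Opalin had library means of 645 ± 57.7 CPM at position 7, 138 ± 25.0 CPM at position 10 and 352 ± 73.6 CPM at position 11. Prr5l, lowest where Opalin was highest, had 478 ± 126, 2297 ± 358 and 1704 ± 312 CPM at the same positions. Enpp6 was again higher at position 10 (287 CPM) than at positions 7 (80.3 CPM) and 11 (73.2 CPM). Position 3, led by the cell division genes Top2a and Mki67, held only 10 to 24 nuclei per library.

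**Figure D2:**
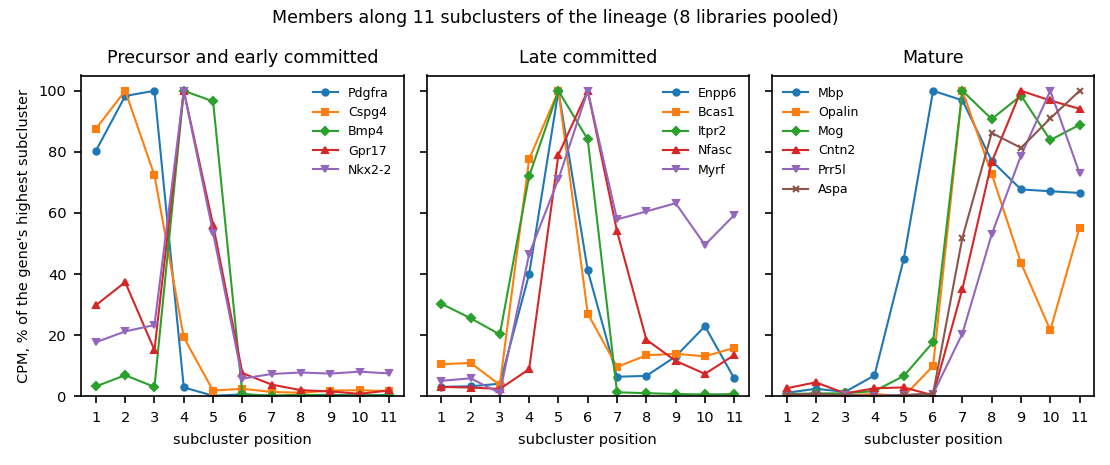
Lines show 16 members over the 11 lineage subclusters (x axis, ordered by mature minus OPC marker level), with the 8 libraries pooled and CPM given as a percentage of the gene's highest subcluster. Gpr17 is highest at position 4, Enpp6 at 5, Nfasc at 6, Opalin at 7 and Prr5l at 10, each in 8 of 8 libraries, while Bmp4 is about level at positions 4 and 5 and Mbp at 6 and 7.

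Several members had sizeable levels outside the lineage. Cspg4 was at 337 ± 115 CPM in mural cells, 102% of its OPC level, and NG2 is a known pericyte protein. Bmp4 was at 128 ± 35.2 CPM in fibroblasts, 87.8% of its committed level, and Pdgfra at 166 ± 43.7 CPM there, 17.6% of its OPC level. Itpr2 reached 551 ± 102 CPM in mural cells and 325 ± 44.1 CPM in astrocytes. Mal was at 218 ± 94.4 CPM in endothelial cells, and Aspa at 148 ± 26.2 CPM in fibroblasts. Sox8 (33.0 ± 13.9 CPM) and Enpp6 (135 ± 42.5 CPM) were present in astrocytes.

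The myelin genes were low in neurons relative to mature nuclei. Mbp was at 85.6 ± 35.9 CPM in excitatory neurons, 1.36% of its mature level, and Mog at 4.78 ± 1.34 CPM, 0.39%. Over the 18 members highest in mature nuclei, the median share of the mature level was 0.39 to 0.63% per library in excitatory neurons, 0.60 to 0.97% in inhibitory neurons, 1.17 to 2.22% in astrocytes and 1.89 to 3.02% in microglia. Nfasc was at 225 ± 46.5 CPM in excitatory neurons, 5.51% of its committed level, and Cntn2 at 24.3 ± 2.21 CPM in inhibitory neurons, 12.9% of its mature level. Carried RNA, remaining doublets and native expression were not separated by a test.

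**Figure D3:**
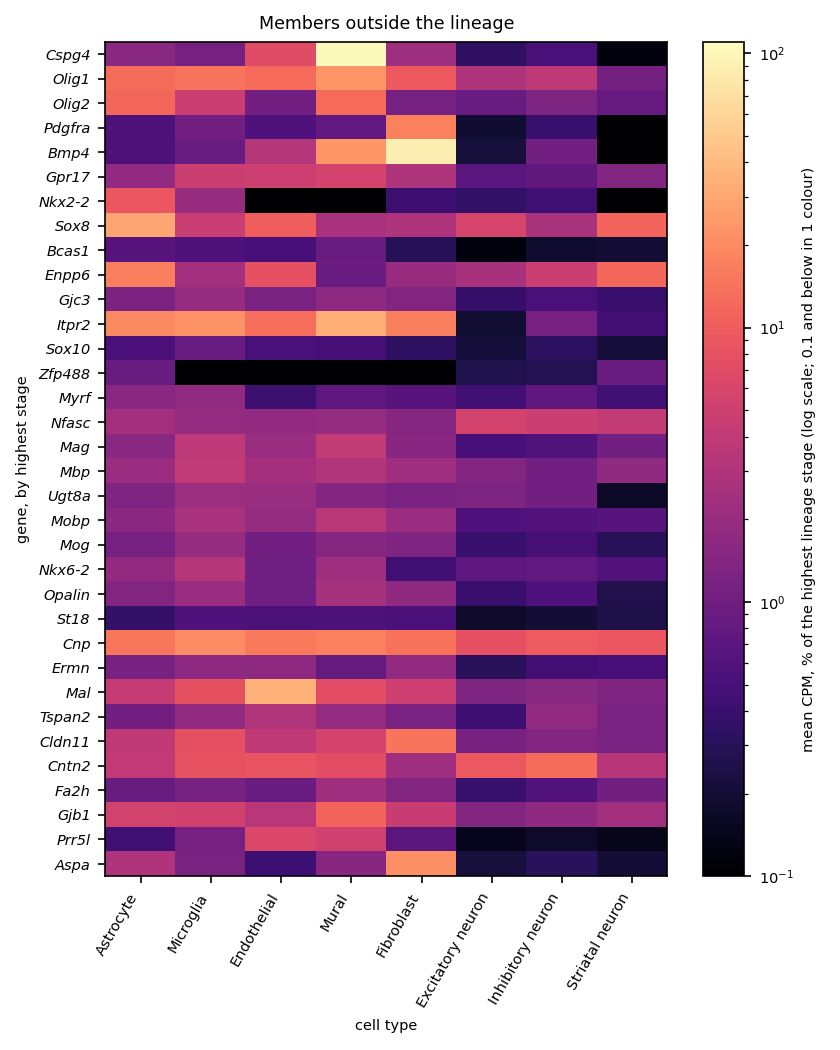
Heat map of the 34 genes (rows) in 8 named cell types outside the lineage (columns); colour is the mean CPM over libraries as a percentage of the highest lineage stage, on a log scale with 0.1 and below in a single colour. Cspg4 in mural cells and Bmp4 in fibroblasts reach 102% and 87.8%, while Mbp in excitatory neurons is at 1.36%.

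The genotype comparison asked whether members differed between libraries labelled WT and Chd8het in each stage. Chd8 itself was at 83.3 ± 11.3 CPM in WT and 81.9 ± 13.0 CPM in Chd8het OPC, at 75.4 ± 19.3 and 70.1 ± 18.7 CPM in committed and at 80.4 ± 13.0 and 74.3 ± 17.0 CPM in mature nuclei. A 3′ count does not separate alleles, so these values do not check the labels. Lineage nuclei held 35.6 ± 1.44% OPC in WT libraries and 36.6 ± 2.26% in those labelled Chd8het (two-sided exact permutation test, p 0.514). Committed nuclei made up 13.1 ± 0.705% and 12.7 ± 1.66% (exact p 0.771), and mature nuclei 51.3 ± 2.10% and 50.7 ± 2.31% (exact p 0.657). Within single-indexed libraries the differences, Chd8het minus WT, were 3.04, −1.01 and −2.03 percentage points for OPC, committed and mature nuclei, and within dual-indexed libraries −1.10, 0.34 and 0.77, opposite in sign for all 3. The adjusted p was 0.771 for each of the 3 shares, and 0.029 is the smallest p that 4 against 4 libraries allow.

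No member passed the test in any stage, and neither did any other gene in the model of sex and genotype. In edgeR's quasi-likelihood test 0 of 10237 genes tested in OPC (0%), 0 of 6648 in committed (0%) and 0 of 10972 in mature nuclei (0%) were called at adjusted p under 0.05. At an unadjusted p under 0.05 there were 335, 173 and 321 genes, and DESeq2 called 0 in each stage. With the replicate pairs as a block 2 of 10747 genes were called in OPC (0.0186%), both higher in Chd8het: Tenm2, a teneurin of cell adhesion, and Gm42418. Neither is a member. Of the members 27, 27 and 32 were tested, and 1, 1 and 0 were under an unadjusted p of 0.05. With the replicate pairs as a block, 3, 1 and 3 members were under that level, and none was called. Over all genes tested that share was 6.92, 4.19 and 6.76% with the block, against 3.27, 2.60 and 2.93% without it. With an index type term instead, 2, 1 and 3 members were under it, and none was called. In the model of sex and genotype, the members had median log2 changes, Chd8het over WT, of 0.09 in OPC, −0.003 in committed and −0.008 in mature nuclei. Over all genes tested the medians were 0.001, −0.006 and −0.004. In OPC 17 of the 27 were higher in Chd8het, but with the marker gate 11 of the 27 changed sign and the median was −0.18. The gate does not only restage the lineage: its OPC set held 2501 nuclei of the OPC cluster, 293 of the committed, 280 of the excitatory neuron, 88 of the inhibitory neuron and 50 of the astrocyte class, and 224 of unnamed clusters. In Chd8het male 2 it held 578 nuclei with 2979868 UMIs, against 332 nuclei with 1057587 UMIs by cluster. The OPC median was −0.016 without WT female 1 and −0.008 with predicted doublets kept, which also moved the mature median to −0.10. Marker sums were looked at for every list in each stage, without a test. Summed mural cell markers in OPC were at 6.63 to 13.7 CPM in WT and 18.9 to 34.8 CPM in Chd8het libraries, without overlap. Fibroblast markers in committed nuclei were at 10.952 to 45.9 CPM in WT and 7.68 to 10.939 CPM in Chd8het, so the ranges nearly touched. All other sums overlapped between the genotypes. The mural and fibroblast sums rest on few UMIs per library, and nothing is drawn from either gap. The part of these sums in the member values was not tested.

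Below, values run in the order male 1, male 2, female 1 and female 2. Pdgfra in OPC was at 1124, 789, 1120.0 and 692 CPM in WT and at 1081, 758, 1151 and 825 CPM in Chd8het. The high libraries were the replicate 1 ones in both genotypes, and the groups overlapped (log2 change 0.01, SE 0.17, 95% interval −0.32 to 0.34). Cspg4 in OPC was at 373, 259.9, 342 and 270.0 CPM in WT and 369, 318, 402 and 317 CPM in Chd8het (0.15, SE 0.13). Olig1 was at 75.0, 35.8, 98.11 and 37.7 CPM against 93.8, 40.7, 93.6 and 44.8 CPM (0.13, SE 0.33), with replicate 1 again above replicate 2 in each sex of both genotypes. Olig2 in OPC was at 47.2, 59.7, 72.8 and 59.1 CPM against 75.5, 59.6, 74.8 and 51.3 CPM (0.11, SE 0.18).

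In committed nuclei Bmp4 was at 172, 67.5, 140.0 and 180.0 CPM in WT and 140.0, 131, 207 and 127 CPM in Chd8het (log2 change 0.09, SE 0.23, interval −0.36 to 0.53). Gpr17 was at 348, 216, 253 and 216 CPM against 249, 163, 330.3 and 188 CPM (−0.18, SE 0.21), and Enpp6 at 873, 686, 751 and 808 CPM against 783, 937, 868 and 779 CPM (0.09, SE 0.14). The groups overlapped for all 3. Nfasc was at 3879.9, 5032, 3637 and 3697 CPM against 3807, 4547, 3936 and 4207 CPM, a change of 0.003 (SE 0.14). Sox10 was at 507, 329.9, 572 and 291 CPM against 488, 284, 471 and 289 CPM (−0.17, SE 0.22) and was lower in Chd8het in 4 of 4 same-numbered pairs. Myrf was at 148, 182, 135 and 129 CPM against 136, 187, 146 and 203 CPM (0.17, SE 0.19). Without Chd8het female 2 the change of Myrf was 0.013.

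In mature nuclei Mbp was at 6883, 6401, 5716 and 5789 CPM in WT and 6737, 6049, 6743 and 6022 CPM in Chd8het. The groups overlapped and the log2 change was 0.01 (SE 0.11, interval −0.21 to 0.24). Mog was at 1419, 989.8, 1526 and 929.9 CPM against 1669.5, 900.4, 1486 and 1005 CPM (0.02, SE 0.22), again with both replicate 1 libraries of each genotype above both replicate 2 libraries. Opalin was at 322, 355, 452 and 401 CPM against 336, 352, 370.0 and 424 CPM (−0.08, SE 0.11). Cntn2 was at 211, 183, 173 and 171 CPM against 194, 217, 185 and 169 CPM (0.01, SE 0.11).

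**Figure D4:**
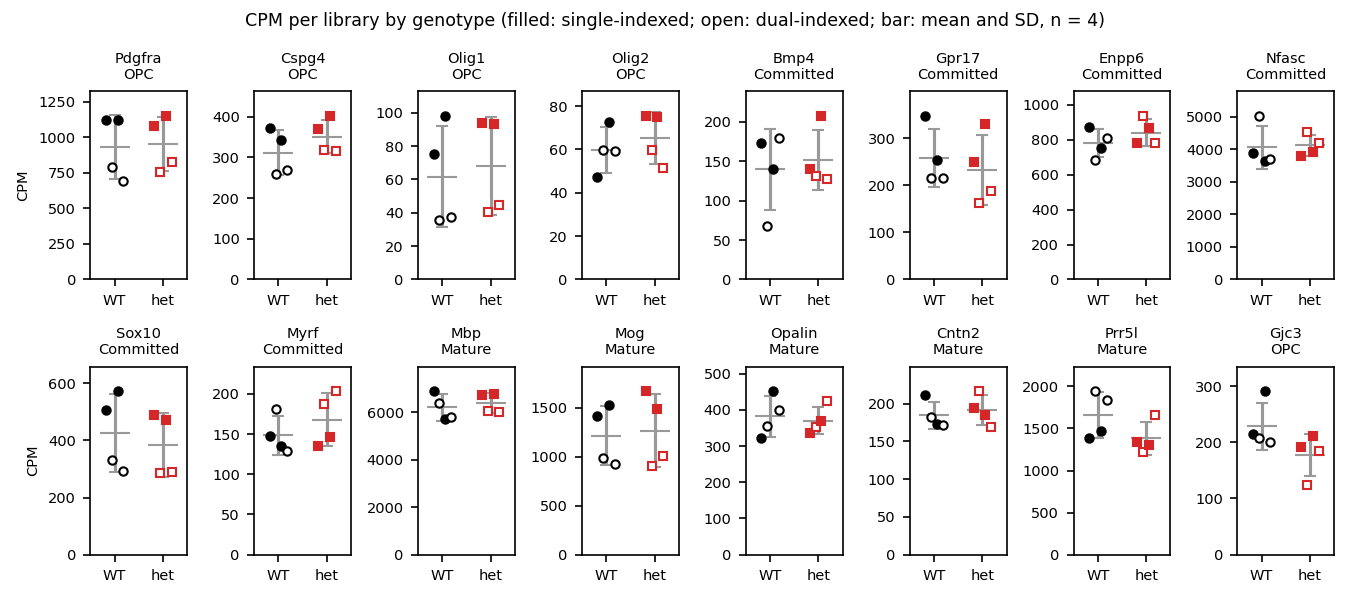
CPM of 16 members per library by genotype, each in the stage named above its panel; filled points are single-indexed and open points dual-indexed libraries, and grey bars are mean and SD (n = 4). WT and Chd8het points overlap in every panel, and for Mog, Olig1 and Sox10 the filled points lie above the open ones in both genotypes.

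The members with the smallest unadjusted p were Gjc3 in OPC, Olig2 in committed and Prr5l in mature nuclei, and none passed adjustment. Gjc3 was at 215, 207, 291 and 201 CPM in WT and 192, 124, 211 and 185 CPM in Chd8het (log2 change −0.39, SE 0.15, edgeR p 0.0244, adjusted p 0.999), lower in Chd8het in 4 of 4 pairs with overlapping groups. Without WT female 1 the change was −0.28. Olig2 in committed nuclei was at 30.1, 31.2, 41.0 and 29.1 CPM against 43.8, 47.7, 46.1 and 54.7 CPM (0.54, SE 0.25, edgeR p 0.0468, adjusted p 1.00). The 2 groups did not overlap, and Olig2 was not called. Such a gap was seen for 1 of the 27 members tested in committed nuclei. The share of all genes with such a gap was not counted, so nothing about Olig2 is drawn from it. Prr5l was at 1385, 1943, 1469 and 1835 CPM against 1342, 1215, 1303 and 1665 CPM (−0.30, SE 0.14, edgeR p 0.053, adjusted p 0.999), lower in Chd8het in 4 of 4 pairs. Without WT male 2 the change of Prr5l was −0.18.

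The next members by p were not called either. In OPC, Ugt8a was at 174, 149.9, 153 and 148 CPM in WT and 149, 109, 147 and 137 CPM in Chd8het (log2 change −0.23), and −0.13 without Chd8het male 2. Bmp4 in OPC was at 8.47, 21.2, 5.51 and 15.4 CPM against 8.71, 11.3, 4.92 and 8.74 CPM (−0.63), and −0.32 without either WT male 2 or WT female 2. In committed nuclei Cnp was at 134, 174, 154 and 159 CPM against 116, 133, 141 and 149 CPM (−0.23), and −0.11 without WT male 2. The groups overlapped for these 3 members. Cspg4 in committed nuclei was at 21.9, 15.6, 21.7 and 17.1 CPM against 43.8, 17.03, 23.0 and 28.4 CPM (0.51). In mature nuclei Gpr17 was at 10.8, 8.75, 12.1 and 13.1 CPM against 7.33, 8.46, 10.2 and 3.79 CPM (−0.63), and −0.34 without Chd8het female 2. Enpp6 in mature nuclei was at 96.2, 201, 150.2 and 158 CPM against 99.5, 119, 116 and 149.8 CPM (−0.36), and −0.10 without WT male 2. The groups overlapped for these members too. In every same-numbered pair, Ugt8a in OPC, Cnp in committed and Gpr17 in mature nuclei were lower in Chd8het. Cspg4 in committed nuclei was higher in every such pair. Bmp4 in OPC and Enpp6 in mature nuclei differed in sign between pairs. These members, like Gjc3, Olig2 and Prr5l above, were picked by p in the same libraries. A like direction in every pair follows in part from that picking, and its share over all genes was not counted.

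**Figure D5:**
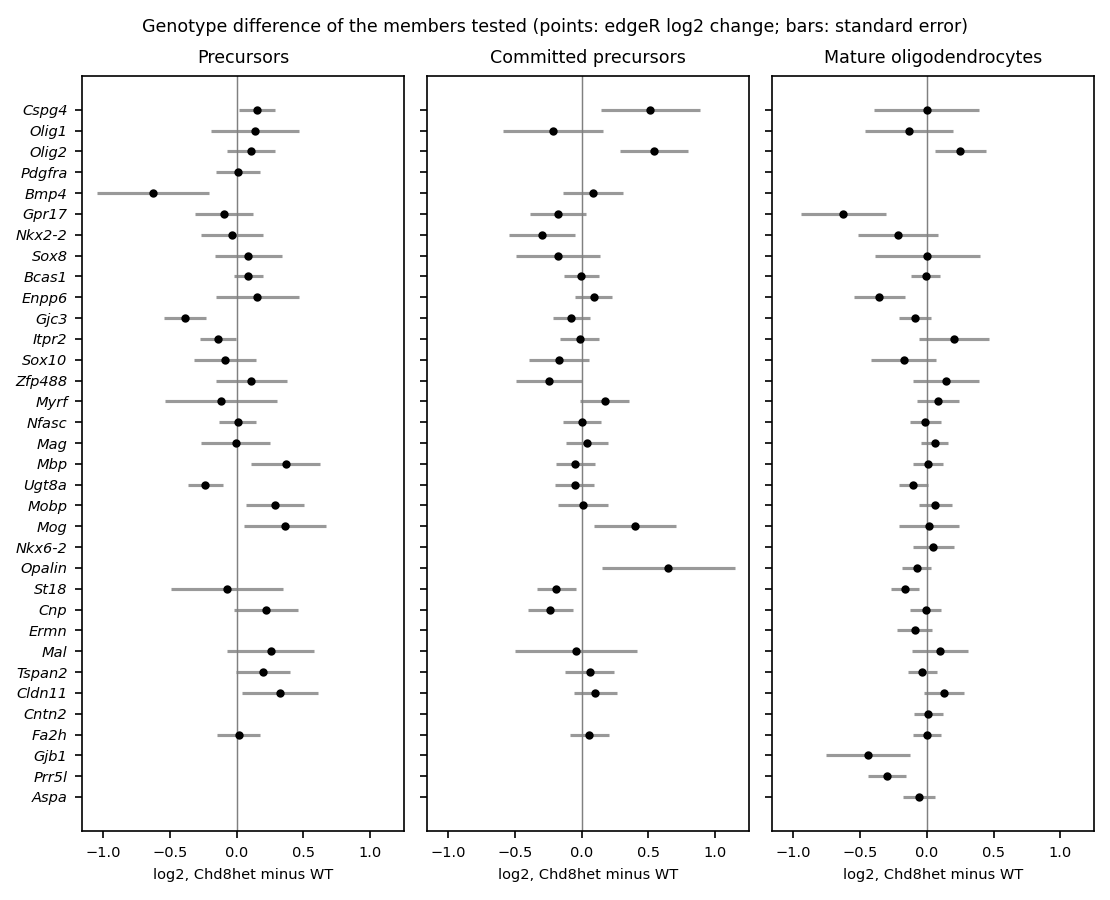
Points are edgeR log2 changes, Chd8het minus WT, of the members tested in each stage, and bars are standard errors (x axis in log2 units, genes in rows). None of the members is called in any of the 3 stages, and their medians are 0.09 in OPC, −0.003 in committed and −0.008 in mature nuclei.

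A model of the genotype difference in mature against OPC nuclei called 0 of 12308 genes (0%), with 628 at an unadjusted p under 0.05. Of the 34 members 2 were under that level: Pdgfra (1.06, SE 0.40, edgeR p 0.014, adjusted p 0.908) and Gjc3 (0.32, SE 0.14, edgeR p 0.022, adjusted p 0.929). Mature Pdgfra stood at only 2.25 ± 1.25 CPM in WT and 5.04 ± 1.81 CPM in Chd8het.

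Other genes of myelin and of its control were followed in 5 lists, and none of their genes was called in mature nuclei. Of 27 further myelin genes tested 10 were higher and 17 lower in Chd8het, with a median log2 change of −0.04. The same list had 10 higher and 5 lower in OPC (median 0.12) and 6 and 10 in committed nuclei (−0.03). Outside the lineage it had 22 higher and 5 lower (0.11). In mature nuclei Anln, an actin-binding protein, was at 241 ± 29.8 CPM in WT and 198 ± 30.8 CPM in Chd8het. Trf, the iron carrier transferrin, was at 681 ± 79.8 and 613 ± 71.7 CPM. Of 21 genes of cholesterol synthesis and its regulation 17 were higher and 4 lower, with a median of 0.14. They stood at 14 higher and 3 lower in OPC and at 10 and 7 in committed nuclei. Outside the lineage the same list had 20 higher and 1 lower, with a median of 0.20. With the replicate block 9 of the list were under an unadjusted p of 0.05 there, against 0 without it. Over all genes tested there the share was 6.10% with the block and 1.37% without it. In OPC, committed and mature nuclei 1, 0 and 0 of the list were under that level with the block, and none was called. In mature nuclei Idi1, an isomerase of the pathway, was at 11.4 ± 3.35 CPM in WT and 16.4 ± 6.38 CPM in Chd8het. Sqle, squalene epoxidase, was at 45.7 ± 4.25 and 55.9 ± 11.6 CPM. Of 15 sphingolipid and long-chain fatty acid genes 9 were higher and 6 lower. The fatty acid desaturase gene Fads1 was at 8.87 ± 1.31 and 16.05 ± 4.45 CPM, higher in Chd8het in 4 of 4 pairs, and Sptlc2 at 95.9 ± 4.98 and 109.9 ± 7.12 CPM. Of 10 inhibitors of differentiation tested 8 were higher and 2 lower in mature nuclei, with a median of 0.17. The same list had 5 higher and 9 lower in OPC (median −0.05) and 1 higher and 8 lower in committed nuclei (median −0.084). Ptprz1, a receptor phosphatase, was at 23.8 ± 6.61 and 38.3 ± 9.65 CPM, and Notch1 at 6.16 ± 2.66 and 8.88 ± 2.00 CPM. Of 22 regulators 11 were higher and 11 lower. Chd7, the paralog of Chd8 in the CHD family, was at 235 ± 4.62 and 266 ± 5.76 CPM, and Nfix at 151 ± 22.6 and 173 ± 23.1 CPM.

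Outside the lineage the test called 0 of 21238 genes (0%), with 291 at an unadjusted p under 0.05 and 2 called by DESeq2. None of the 34 members was called, and 29 were higher in Chd8het, with a median of 0.20 against 0.001 over all genes. Under an unadjusted p of 0.05 were 0 members, against 4 with the replicate block and 6 with an index type term. Over all genes tested that share was 1.37, 6.10 and 5.64% in the same order. Without Chd8het female 2 the median was 0.33 and 5 members were under an unadjusted p of 0.05, beside 3.21% of all genes. Without Chd8het male 2 the median was 0.16, with 23 members higher. The summed level of the 18 members highest in mature nuclei was 189, 201, 167 and 205 CPM in WT and 247, 288, 202 and 168 CPM in Chd8het, in the order male 1, male 2, female 1 and female 2. Both Chd8het males were above both WT males, the females overlapped, and so did the groups of 4. A sex by genotype term, added after the data were seen, called 0 of 21627 genes (0%), with 91 at an unadjusted p under 0.05, of which 1 was a member. Its median over the 34 members, the genotype change in females minus that in males, was −0.47, beside −0.003 over all genes. Tspan2 was at 5.30 ± 0.365 and 6.58 ± 1.08 CPM (edgeR p 0.075). Its groups did not overlap, as for 1 of the 34 members. The share over all genes was not counted, so nothing about Tspan2 is drawn from it. Olig2 was at 0.707 ± 0.225 and 0.946 ± 0.025 CPM, and Myrf at 0.728 ± 0.218 and 0.998 ± 0.084 CPM.

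Members differed between single- and dual-indexed libraries. With index type tested beside sex and genotype, edgeR called 865 of 10747 genes in OPC (8.05%), 272 of 7236 in committed (3.76%) and 1153 of 11458 in mature nuclei (10.1%). Members called numbered 9 of 27, 4 of 27 and 8 of 32. Sox10 and Sox8 were lower in dual-indexed libraries in all 3 stages. Sox10 in OPC was at 333 ± 29.9 CPM in single- and 194 ± 27.0 CPM in dual-indexed libraries (n = 4 each). Olig1 in OPC was at 90.1 ± 10.3 and 39.7 ± 3.91 CPM, and Pdgfra at 1119 ± 28.7 and 766 ± 56.4 CPM. In mature nuclei Mog was at 1525 ± 106 and 956 ± 49.3 CPM and Mal at 759.7 ± 63.7 and 491 ± 59.6 CPM. St18, Enpp6 and Itpr2 in OPC, Nkx2-2 in committed and Myrf in mature nuclei were higher in dual-indexed libraries. Each genotype holds 2 libraries of each index type, so index type and genotype are balanced. Dual-indexed libraries also held 46 to 125 nuclei named striatal neurons, and single-indexed libraries 0 to 33. Summed striatal neuron markers in mature nuclei had means of 217 CPM in dual- and 90.6 CPM in single-indexed libraries. Their part in the differences by index type was not tested.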

How the data were processed

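The files hold deposited UMI counts per gene and barcode from the authors, whole numbers that were not normalized. The submitters' processing notes name STAR 2.7.9a, STARsolo, Cell Ranger and mm10. Whether introns were counted, and whether counting used strand, is not given in the sources used here, so overlapping genes such as Bcas1 and Bcas1os1, or Cnp and Dnajc7, cannot be told apart. Nuclei with at least 500 genes and at most 5% mitochondrial UMIs were kept, predicted doublets were removed with Scrublet in scanpy 1.11.5 (rate 0.8% per 1000 nuclei, 4.03 to 7.34% per library), and nuclei were clustered (40 components, 20 neighbours, Leiden resolution 1.5) without the 34 members. Clusters were named from listed markers. UMIs were summed per library and stage and tested with edgeR 4.0.16 (quasi-likelihood, TMM, filterByExpr with a minimum count of 10, sex and genotype as terms, Benjamini-Hochberg over all genes), after a test on simulated counts. DESeq2 1.42.0, other scalings, filters, gates and left-out libraries were alternatives. Shares were compared by exact permutation. Library values are given for 14 members listed by name and for the 3 members with the smallest p in each stage. Of each gene list the 2 genes with the smallest p in mature nuclei are named. For genes picked this way a like direction in every pair follows in part from the picking. The members and lists were chosen with earlier results of these data known. Gene positions are from GENCODE on GRCm38.

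Libraries of like sex and like replicate number were treated as paired after a check of their deviations from group means: the correlation was 0.139 to 0.398 in OPC, 0.184 to 0.252 in committed and 0.171 to 0.494 in mature nuclei. Same-index libraries of different sex also correlated, at 0.171 to 0.270 in OPC, 0.133 to 0.220 in committed and 0.137 to 0.354 in mature nuclei. The replicate number and the pair thus cannot be told apart. Deviations were taken from genotype means, so shared sex and index type enter them, and the check could not identify the pairs. Each library is 1 animal. In the model of sex and genotype, p-values measure the spread between libraries, which holds index type as well as animal. The model of mature against OPC nuclei has a term for each library, so its p-values measure the spread of that difference.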

Additional observations from a re-analysis of the deposited data

Results flagged for a closer look

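Among 58 groups of 4 libraries examined, 3 held a library far from the other 3, and chance flags about 1 group in 20. Bmp4 in committed nuclei was at 207 CPM in Chd8het female 1, with the other 3 Chd8het libraries at 126.9 to 140.0 CPM. Gjc3 in OPC was at 291 CPM in WT female 1, with the others at 200.6 to 215 CPM. Olig2 in committed nuclei was at 41.0 CPM in WT female 1, with the others at 29.1 to 31.2 CPM.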

How the results depend on the processing

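Over 41 results and 620 alternatives, 560 were scored as kept, 49 reversed and 11 moved. Log2 changes and shares were scored as kept if direction and side of the threshold held. Counts were scored as kept within a set fold, and the percentage of the mature level in other types within its SD over libraries. The fall from 12 to 8 members highest in committed nuclei, given below, was thus scored as kept. None of the 26 member changes was called under any alternative, and the smallest adjusted p was 0.339. With a replicate block for the pairing the count of calls in OPC went from 0 to 2 of 10747 (0.0186%), Tenm2 and Gm42418, both higher in Chd8het and neither a member, and the block changed no other call in a lineage stage. Within single-indexed libraries, an alternative chosen after seeing the data, calls were 14 in OPC and 35 in mature nuclei. Without a count filter there were 3 calls in committed nuclei (Hbb-bs, Hba-a1 and Hba-a2) and 1 for genotype by stage (Nkain2). DESeq2 made 2 calls in other types. With doublets kept, log2 changes reversed for Mbp (−0.095), Mog (−0.11) and Cntn2 (−0.089), and the mature share difference became 0.23 percentage points. With them kept, the median level of the 18 members highest in mature nuclei went from 0.533% to 0.954% of the mature level in excitatory neurons. With the per-nucleus gate, which put 87.4% of lineage nuclei but only 501 of the 901 committed ones in the stage of their cluster (293 were gated OPC), Enpp6 (−0.0013), Bmp4 (−0.079), Pdgfra (−0.085) and Nfasc (−0.022) reversed. The gate moved the highest stage of Gjc3, Nkx2-2, Sox8, Olig1 and Gpr17, and members highest in committed nuclei went from 12 to 8. Within dual-indexed libraries Mbp (−0.020), Mog (−0.020), Opalin (0.028), Olig2 in OPC (−0.12) and Nfasc (−0.012) reversed, and within single-indexed ones Myrf (−0.018), Pdgfra (−0.041) and Cntn2 (−0.068). Leaving out each library in turn gave 0 calls throughout and ranges of −0.042 to 0.069 for Mbp, −0.20 to 0.19 for Mog, −0.35 to 0.049 for Sox10, −0.14 to 0.48 for Olig1, −0.0013 to 0.23 for Olig2 in OPC, −0.11 to 0.31 for Bmp4 in committed, −0.41 to 0.018 for Gpr17 in committed, −0.13 to 0.14 for Pdgfra, −0.058 to 0.13 for Nfasc and −0.034 to 0.066 for Cntn2. Without a reversal, the ranges were 0.013 to 0.31 for Myrf in committed, −0.40 to −0.18 for Prr5l, −0.50 to −0.27 for Gjc3 in OPC, 0.44 to 0.64 for Olig2 in committed, −0.11 to −0.017 for Opalin, 0.024 to 0.14 for Enpp6 in committed, 0.076 to 0.26 for Cspg4 in OPC, −0.30 to −0.13 for Ugt8a in OPC, −0.90 to −0.32 for Bmp4 in OPC, −0.30 to −0.11 for Cnp and 0.42 to 0.75 for Cspg4 in committed, and −0.84 to −0.34 for Gpr17 and −0.51 to −0.10 for Enpp6 in mature nuclei. Where members were picked by smallest p in these libraries, a range without reversal follows in part from that picking. The difference in share ran from 0.25 to 2.03 percentage points for OPC, −1.05 to 0.28 for committed and −1.63 to 0.24 for mature nuclei. The cause was not tested. The median standard error over the members tested was 0.231 in OPC, 0.186 in committed and 0.144 in mature nuclei.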
